A study of Mus musculus with 18 samples.

Results

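The 30 genes described here encode enzymes and regulators of cholesterol and fatty acid synthesis and were taken by name from the 21859 protein-coding genes of the deposited gene table, where all 30 had 1 row each. They comprise 7 enzymes that lead from acetyl-CoA to farnesyl diphosphate, 11 enzymes that lead from farnesyl diphosphate to cholesterol, 6 regulators and sterol carriers, and 6 enzymes of fatty acid synthesis. The cells were E14 murine embryonic stem (ES) cells with the plant F-box protein osTIR1 integrated in the genome, grown with serum, leukemia inhibitory factor and inhibitors of GSK3 and MEK. In SPT16_AID_V5 clone 1 and clone 2, homozygous lines each derived from an isolated clone, SPT16 carries a C-terminal auxin-inducible degron and 3xV5 tag, whereas untagged cells carry osTIR1 alone. SPT16 is a subunit of the histone chaperone FACT, and auxin (3-IAA) directs the tagged protein to degradation. Each of the 3 lines was treated for 24 h with 3-IAA or with 0.1% ethanol (EtOH) after 48 h of undisturbed growth, with 3 libraries for each of the 6 conditions and 18 libraries in all. RNA made during a 5 min pulse of 4-thiouridine was purified and sequenced (TT-seq), which reports transcription under way rather than RNA that has accumulated. The dose of 3-IAA is 500 nM in the labels, while the study's methods give the same figure in µM.

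Cholesterol is built from acetyl-CoA through mevalonate, isoprenoid diphosphates and squalene, and fatty acids are built from acetyl-CoA through malonyl-CoA. In mammalian cells both routes are switched on by SREBP transcription factors, which are made as membrane precursors, escorted by SCAP to the Golgi when sterols are low, and held back in the endoplasmic reticulum by INSIG proteins when sterols are high. Proliferating cells such as ES cells need both products for new membranes.

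The value used for each gene was the authors' mean of normalized read counts over libraries, EtOH and 3-IAA libraries together, which has no spread and no number of replicates attached. The contrast of SPT16-depleted with control libraries was not made here, because the tables give it only as the authors' own fold changes and p-values and hold no value for a single library. The levels below therefore describe the pooled series and carry no test, and genes next to each other in an order cannot be told apart beyond a spread. For comparison between genes the mean was divided by the span of the gene in kb, from its first to its last annotated base, and ranked as a percentile among the 20140 genes with reads and a gene model. On this scale the median gene stood at 21.7 per kb and the top 25% of genes began at 117 per kb. The means of all genes summed to 55898466 normalized reads, of which the 30 genes made up 0.370%. Since the sources used here do not say whether introns were counted, every rank was also computed per kb of exons.

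The cells carried the transcripts of their label. All 10 ES cell markers stood above the 85th percentile per kb of span, with Pou5f1 (Oct4) at 1595 per kb and Nanog at 2070 per kb. Of 31 markers of hepatocytes, adipocytes, oligodendrocytes, fibroblasts, blood cells and muscle, the hepatocyte gene Serpina1a had no reads and Cnp was the only one above the 50th percentile per kb of span, at 30.4 per kb. Per kb of exons Cnp and Mbp, both oligodendrocyte genes, stood just above it, at the 51.6th and 50.9th percentiles. The ES cell marker Utf1 was close to them on that scale, at the 55.8th percentile. The next lowest ES cell marker per kb of exons, Klf4, stood at the 94.6th. By the mean with no length Utf1 was at the 44.8th percentile, below Mbp at the 60.9th and Cnp at the 51.8th. Utf1 was thus clearly set apart from these markers only per kb of span. Adipocyte and hepatocyte markers, from tissues that make much of the body's lipid, had medians of 0.622 and 0.148 per kb. The FACT subunit genes Supt16 and Ssrp1 stood at 344 and 358 per kb of span, and at 2526 and 946 per kb of exons.

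Promoter sequences were read from RefSeq (GRCm38.p6) for 24 of the 30 genes. Stard4, Scd1, Scd2, Sqle, Fdps and Fdft1 were without an entry. The 250 bases before the transcription start are printed 5′ to 3′ on the strand of the gene for 6 of them. Hmgcs1 is shown for its match to the sterol regulatory element, Insig1 for an E-box, Cyp51 and Acat2 for their high upstream antisense transcription, Srebf2 as a regulator, and Fasn for its overlapping CCAAT boxes. Capitals mark every match to 5 motifs on either strand, namely the sterol regulatory element TCACNCCAC, the E-box CACGTG, the CCAAT box CCAAT, the GC box GGGCGG and the TATA box TATAAA.
Hmgcs1 (chr13:119690101-119690350, + strand): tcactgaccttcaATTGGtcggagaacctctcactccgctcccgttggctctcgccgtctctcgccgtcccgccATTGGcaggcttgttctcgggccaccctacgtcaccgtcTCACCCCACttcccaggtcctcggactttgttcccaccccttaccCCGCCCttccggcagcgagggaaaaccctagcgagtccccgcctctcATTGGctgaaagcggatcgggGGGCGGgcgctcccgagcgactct
Insig1 (chr5:28071162-28071411, + strand): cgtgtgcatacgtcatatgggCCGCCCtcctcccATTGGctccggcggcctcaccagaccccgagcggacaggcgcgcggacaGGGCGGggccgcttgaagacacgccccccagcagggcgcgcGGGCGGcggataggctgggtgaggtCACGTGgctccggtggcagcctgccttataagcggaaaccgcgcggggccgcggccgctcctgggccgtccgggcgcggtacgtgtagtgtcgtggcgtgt
Cyp51 (chr5:4104698-4104947, - strand): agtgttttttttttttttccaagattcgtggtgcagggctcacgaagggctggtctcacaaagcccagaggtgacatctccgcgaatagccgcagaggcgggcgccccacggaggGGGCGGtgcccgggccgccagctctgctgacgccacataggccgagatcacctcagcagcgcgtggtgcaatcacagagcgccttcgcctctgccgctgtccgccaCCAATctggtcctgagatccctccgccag
Acat2 (chr17:12960726-12960975, - strand): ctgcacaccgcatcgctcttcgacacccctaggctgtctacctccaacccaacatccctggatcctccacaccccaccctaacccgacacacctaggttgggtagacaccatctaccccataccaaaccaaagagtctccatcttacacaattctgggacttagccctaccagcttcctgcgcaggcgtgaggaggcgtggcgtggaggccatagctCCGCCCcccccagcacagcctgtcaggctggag
Srebf2 (chr15:82147019-82147268, + strand): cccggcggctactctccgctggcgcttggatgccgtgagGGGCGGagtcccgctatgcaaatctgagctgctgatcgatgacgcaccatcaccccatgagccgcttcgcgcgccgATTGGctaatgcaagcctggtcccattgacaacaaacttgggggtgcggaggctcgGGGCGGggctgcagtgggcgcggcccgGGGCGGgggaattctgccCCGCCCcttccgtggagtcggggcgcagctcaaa
Fasn (chr11:120824548-120824797, - strand): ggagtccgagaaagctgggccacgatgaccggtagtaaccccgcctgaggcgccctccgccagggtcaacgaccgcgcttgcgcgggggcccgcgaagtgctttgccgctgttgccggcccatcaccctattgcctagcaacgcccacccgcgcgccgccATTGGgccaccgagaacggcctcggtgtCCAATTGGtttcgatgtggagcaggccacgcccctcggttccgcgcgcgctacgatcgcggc

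Of these motifs, the CCAAT box, which is bound by the factor NF-Y, and the GC box, which is bound by SP family factors, were the most frequent in the promoters of the 24 genes. In a window of 250 bases before to 50 bases after a start, counting a gene with several promoters once, a CCAAT box occurred in 20 of 24 genes (83.3%) and in 41.0% of 27001 other genes. A GC box also occurred in 20 of 24 genes, compared with 38.2% of other genes. Among other genes with a mean of at least 1, the GC box was in 59.7% and the CCAAT box in 42.1%. Over all 32851 promoters of that length, irrespective of gene, 37.4% held a CCAAT box and 35.7% a GC box. Of the 32 promoters of the 24 genes, 21 held a CCAAT box and 24 a GC box. In 16 genes at least 1 CCAAT box began within 100 bases before a start. In 19 genes a box lay before a start. Among them the median position of the last such box was -45, where 0 is the first transcribed base. In 11 genes a single promoter held 2 or more CCAAT boxes. Mvk, whose product phosphorylates mevalonate, had boxes at -173, -120, -67, -50 and -14. In the printed Fasn promoter the boxes at -62 and -59 lie on opposite strands and share bases. A total of 18 genes held both a CCAAT box and a GC box. How many other genes held CCAAT boxes this close to a start, 2 or more of them, or both motifs was not counted.

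The sterol regulatory element, the sequence bound by SREBP proteins, was matched in its spelled form in 1 of the 24 genes. It lay at -137 in the Hmgcs1 promoter, and 1.43% of other genes held a match. The E-box, which can be bound by SREBP proteins and by other basic helix-loop-helix factors, occurred in Dhcr7, Hsd17b7, Insig1, Sc5d and Scap (5 of 24 genes), compared with 8.08% of other genes. The TATA box occurred in Scap alone, compared with 15.7% of other genes. Among other genes with a mean of at least 1, an E-box occurred in 10.35% and a TATA box in 10.95%. In Acaca and Elovl6 none of the 5 motifs was found in the windows searched. A match is a string of letters and was not tied here to binding by any factor. The 20 genes with a CCAAT box had a median percentile of 72.8 per kb of span beside 73.9 for the other 4.

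**Figure D1:**
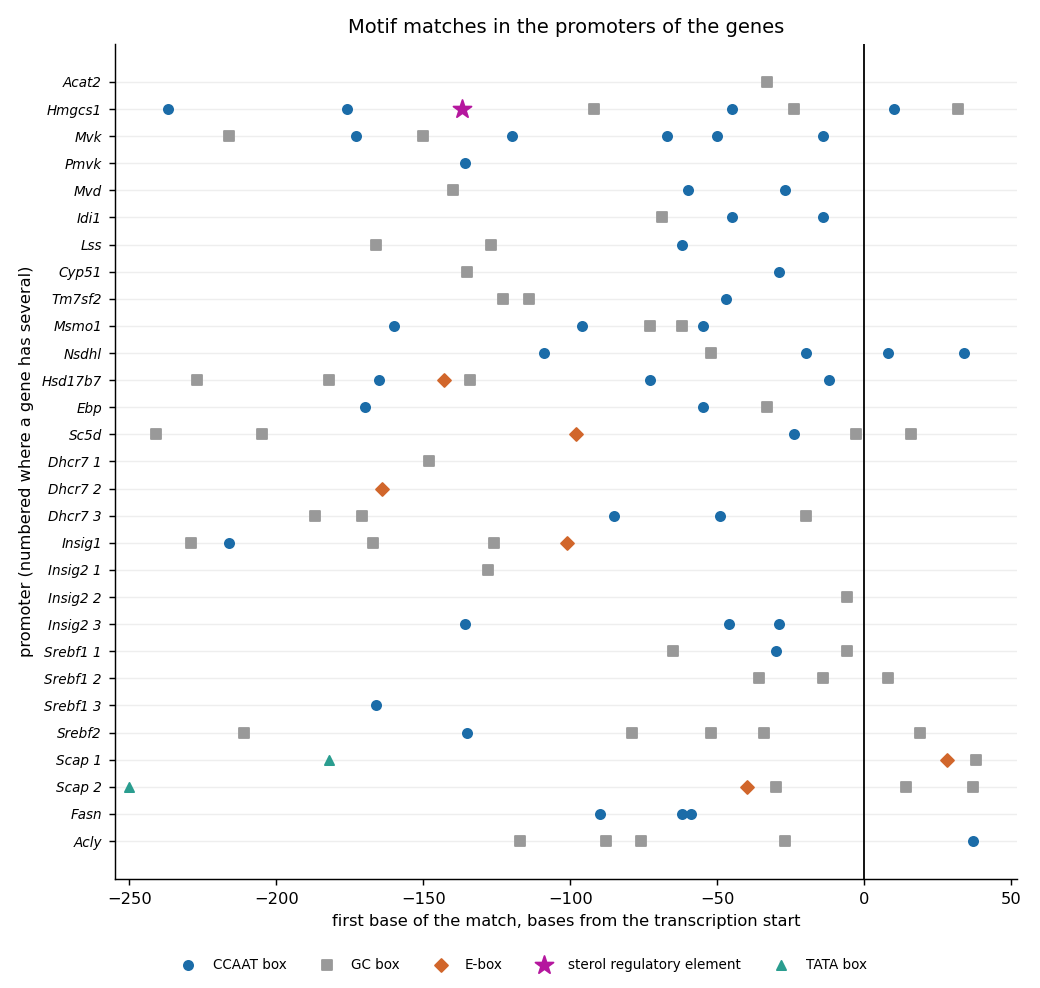
Position of each motif match (first base, in bases from the transcription start, on either strand) in the RefSeq promoters of the genes, 1 line for each promoter with a match, numbered by position on the chromosome where a gene has several. In 16 genes a CCAAT box (blue circle) begins within the 100 bases before a start, and the sterol regulatory element (star) appears once, at -137 in Hmgcs1.

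Transcription was detected for all 30 genes, and 29 of them stood above the median gene per kb of span. The lowest was Fdps at 14.3 per kb and the highest was Scd2 at 1317 per kb. The median of the 30 genes was the 80.7th percentile per kb of span and the 78.6th per kb of exons, and 16 genes by span and 17 by exons were among the top 25% of genes. The 4 groups differed in where they lay. Median percentiles per kb of span were 68.0 for the mevalonate and isoprenoid enzymes, 72.2 for the squalene and sterol enzymes, 85.2 for the regulators and 96.5 for the fatty acid enzymes. Per kb of exons the medians were 70.9, 64.1, 78.6 and 88.8, so the first 2 groups changed order with the length used, whereas the regulators and then the fatty acid enzymes stayed highest. The fatty acid enzymes accounted for 0.220% of the summed means of all genes, and the mevalonate and isoprenoid enzymes for 0.0254%.

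**Figure D2:**
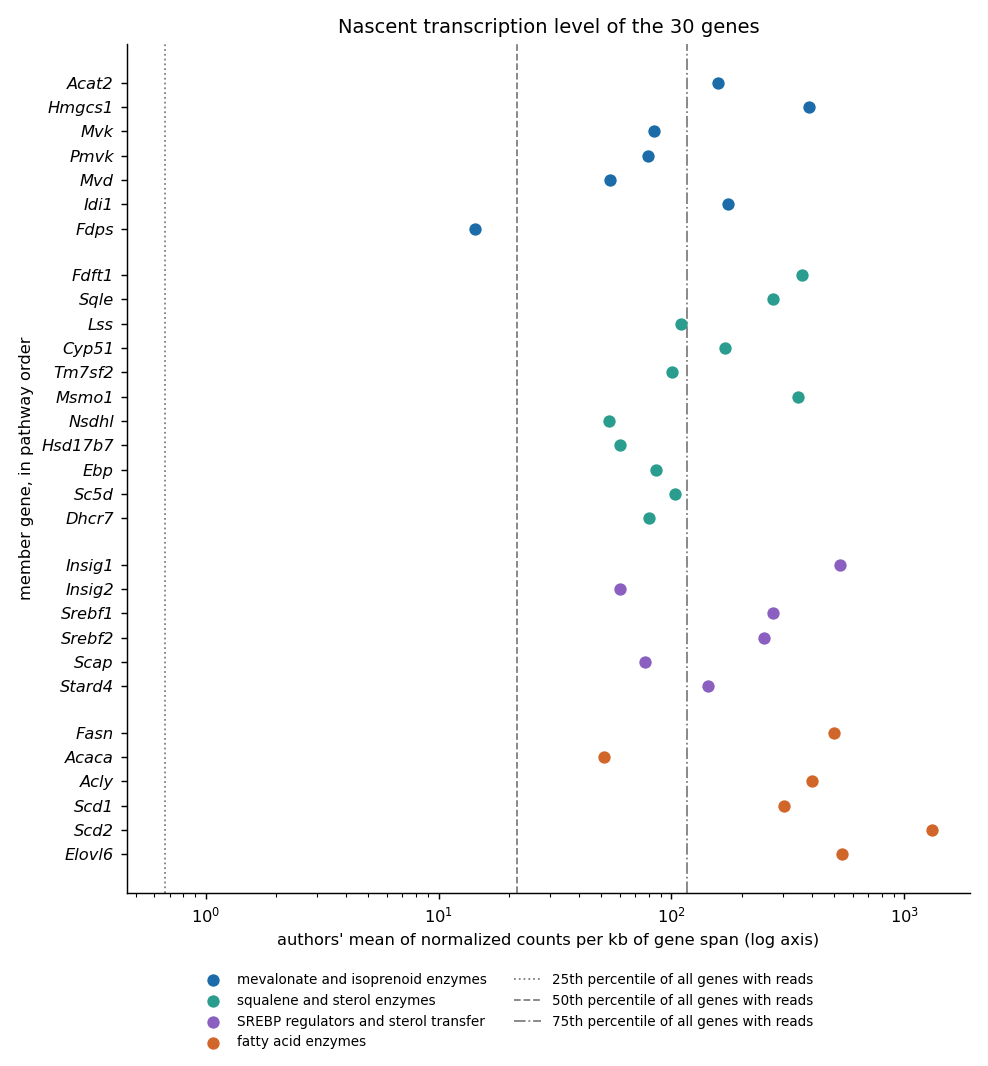
The authors' mean of normalized counts per kb of gene span (log axis) for the 30 genes, in pathway order and coloured by group, with lines at the 25th, 50th and 75th percentiles of all genes with reads. Fdps, at 14.3 per kb, is the single gene left of the median line, and 5 of 6 fatty acid enzymes lie right of the 75th percentile line.

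Levels in the early mevalonate route followed no single direction along the pathway. Acat2, the cytosolic thiolase that condenses acetyl-CoA, stood at 158 per kb of span (81.7th percentile), and Hmgcs1, which makes HMG-CoA, at 391 per kb (95.7th percentile). Hmgcs1 lies on chromosome 13 from 119690379 to 119708260 of GRCm38, on the plus strand, and was the highest of the 7 early enzymes. The kinases Mvk and Pmvk were close to each other at 84.2 and 79.0 per kb of span, and the decarboxylase Mvd lay lower at 54.7 per kb. These 3 enzymes turn mevalonate into isopentenyl diphosphate. Idi1, which isomerises isopentenyl diphosphate, was at 174 per kb of span and the 83.9th percentile, but at the 63.9th percentile per kb of exons.

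Fdps, the synthase of farnesyl diphosphate and the branch point to sterols and protein prenylation, was far below the enzymes on either side of it. Its mean was 120, against 1212 for Idi1 before it and 12561 for Fdft1 after it, and per kb of span it reached 14.3 compared with 174 and 365. Fdps lies on chromosome 3 from 89093588 to 89101959, on the minus strand. Of its exonic bases, 26.7% are also exons of Gm43738, another protein-coding gene of the table on the same strand, which had a mean of 29.5. Gm43738 runs from 89081939 to 89101099, so its span covers most of the span of Fdps. In addition, 12.9% of the 50-base words in its exons occur elsewhere in the genome, and reads with more than 1 alignment were not kept. The part of these overlaps in the low value of Fdps was not tested. Fdps was also the lowest of the 30 genes per kb of exons.

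Repeated sequence was uneven across the genes and is given because it touches the levels above. For 9 genes none of the exonic 50-base words occurs elsewhere in the genome, whereas 8 genes had more than 5% of such words. The highest shares were 68.0% in Idi1, 42.2% in Acat2, 33.0% in Acaca and 28.1% in Insig1. Reads from such words could not be kept as unique alignments unless their mates or flanking bases placed them, and the effect on the level was not tested. Apart from Fdps, exons shared with another gene on the same strand were found only in Tm7sf2, where 12.1% of exonic bases are shared with Vps51.

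From farnesyl diphosphate to cholesterol, the 11 enzymes split into 4 in the top 25% per kb of span and 7 between the 60th and the 75th percentile. Fdft1 (squalene synthase) was highest at 365 per kb of span, and it was also highest per kb of exons. Msmo1, which removes the C4 methyl groups of the sterol nucleus, followed at 350 per kb, Sqle (squalene epoxidase) at 273 per kb and Cyp51 (lanosterol demethylase) at 170 per kb. Thus the enzymes that make and epoxidise squalene and the first 2 demethylating oxidases were the most transcribed on this scale. Lss, the cyclase between Sqle and Cyp51, was lower at 110 per kb of span. The remaining enzymes all lay within a narrow range, from Nsdhl at 53.8 per kb to Sc5d at 104 per kb. Between them came Hsd17b7 at 60.0 per kb, Dhcr7 at 80.3 per kb, Ebp at 85.9 per kb and Tm7sf2 at 101 per kb. Nsdhl and Hsd17b7 act with Msmo1 in removal of the C4 methyl groups, Ebp shifts a double bond, and Sc5d and Dhcr7 act in the last steps. Per kb of exons Nsdhl rose in rank to the 78.1st percentile, and Lss stood at the 59.4th.

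Among the regulators Insig1 was highest per kb of span, with 529 per kb (97.4th percentile), 8.78 times the 60.3 per kb of Insig2. INSIG1 and INSIG2 both retain SCAP and SREBP in the endoplasmic reticulum, and Insig1 is itself a known SREBP target. Per kb of exons the ratio was 2.55, since Insig1 spans 7300 bp and Insig2 28237 bp. Srebf1 and Srebf2, which encode the SREBP precursors linked mainly to fatty acid and sterol genes respectively, had levels of 274 and 250 per kb of span. Their order turned with the length used, for the ratio of Srebf1 to Srebf2 was 1.09 per kb of span and 0.563 per kb of exons. Per kb of exons Srebf2 was the highest of the regulators, at the 93.6th percentile, and Insig1 came next at the 87.1st. Scap, the escort protein, was at 76.8 per kb of span, below both SREBP genes. Stard4, a cytosolic sterol transfer protein, was at 144 per kb of span (79.7th percentile).

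Fatty acid enzymes held 4 of the 5 highest positions per kb of span, and Insig1 held the other. Per kb of exons the 5 highest were Elovl6, Acly, Scd2, Fdft1 and Srebf2. Scd2, a stearoyl-CoA desaturase, was highest of all 30 genes at 1317 per kb of span (99.2nd percentile), in a gene on chromosome 19 from 44293674 to 44306864. Elovl6, which elongates palmitate, had the largest mean, 57550, over a span of 106141 bp on chromosome 3, and stood at 542 per kb of span and the 99.8th percentile per kb of exons. Fasn (fatty acid synthase) followed at 498 per kb of span and Acly (ATP-citrate lyase), which supplies cytosolic acetyl-CoA to both routes, at 402 per kb. Scd1 lay lower at 304 per kb. Acaca, the acetyl-CoA carboxylase that makes malonyl-CoA, was the exception at 51.2 per kb of span (59.8th percentile). It has the longest span of the 30 genes, 271980 bp on chromosome 11, and per kb of exons it stood at the 79.7th percentile.

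The choice of length moved single genes by up to 21.2 percentile points, in Tm7sf2, and 18 genes ranked higher by span while 12 ranked higher by exons. Idi1 and Fasn also fell by more than 15 points when exons replaced the span, and Nsdhl and Acaca gained by more than that. In a joint linear fit across 12526 genes with a mean of at least 100, log2 of the mean rose by 0.586 per unit of log2 exon length. It rose by 0.178 per unit of log2 span. The slope was thus steeper for exon length than for span, the main scale used here, and neither length alone described the counts.

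**Figure D3:**
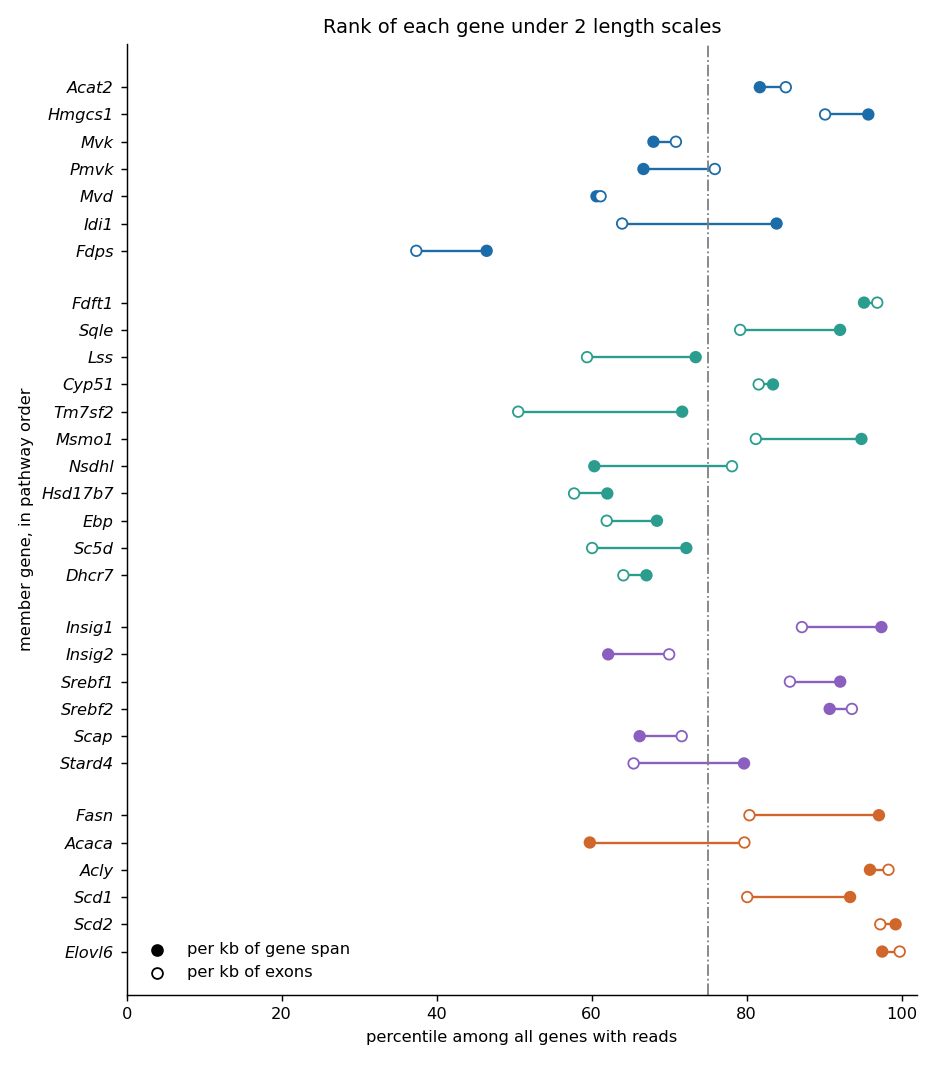
Percentile of each gene among all genes with reads, per kb of gene span (filled) and per kb of exons (open), with a line at the 75th percentile. Tm7sf2, Idi1 and Acaca move most between the 2 scales, while Scd2, Elovl6, Acly and Fdft1 stay above the 95th percentile on both.

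Within gene families, the genes described here were more highly transcribed than the other forms compared. Idi2 had a mean of 0.474, 0.0586 per kb of span, against 174 per kb for Idi1, so that Idi1 exceeded it 2976 times, and 1645 times per kb of exons. Acat2 stood 4.41 times above the mitochondrial thiolase Acat1 (35.9 per kb of span) and 29.1 times above Acat3 (5.44 per kb). Acat3 and Idi2 share sequence with other loci, with 50.1% and 33.9% of their exonic 50-base words found elsewhere, so their low values and those of their relatives are uncertain. Acaca exceeded Acacb, the carboxylase that regulates mitochondrial fatty acid oxidation, by 3.25 times per kb of span and 4.78 times per kb of exons.

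Among the 4 stearoyl-CoA desaturases, Scd2 was 4.32 times as high as Scd1 per kb of span, and 3.80 times per kb of exons. Scd3 and Scd4 were at 2.51 and 1.14 per kb of span, respectively 121 and 266 times below Scd1. Per kb of exons these ratios were 28.98 and 201.5, so the distance to Scd3 depended on the length used. In the family of fatty acid elongases, Elovl6 was the highest on all 4 scales tried. Elovl5, which elongates polyunsaturated fatty acids, came next at 122 per kb of span, 4.45 times below Elovl6. Elovl1, Elovl7, Elovl2 and Elovl4 ranged from 56.3 down to 20.9 per kb of span, and Elovl3 was at 1.18 per kb. Per kb of exons Elovl7 stood at 810 and Elovl1 at 100, so their order depended on the length used. As a whole the 12 paralogs compared had a median percentile of 48.5 per kb of span, compared with 80.7 for the 30 genes.

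**Figure D4:**
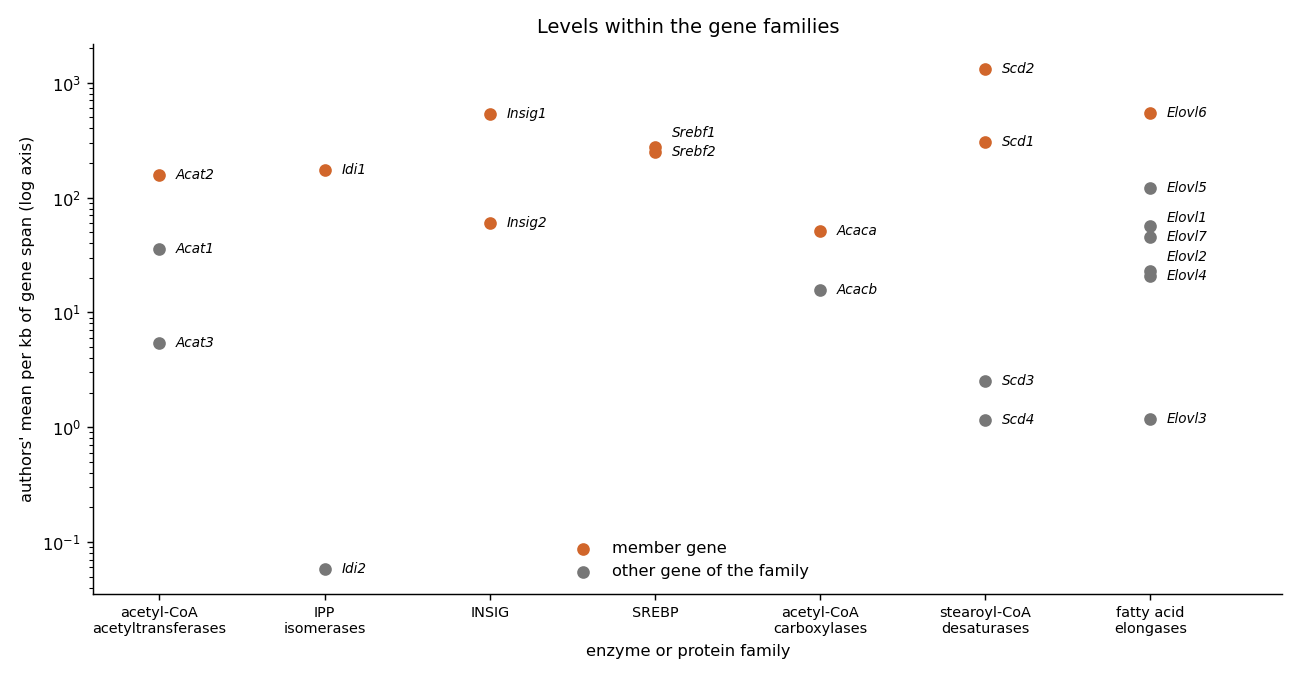
The authors' mean per kb of gene span (log axis) for the genes described here (orange) and the other genes of their families (grey). In each family with a grey point the orange genes lie above it, from 3.25 times for Acaca over Acacb to 2976 times for Idi1 over Idi2, and Scd2 at 1317 per kb is the highest point.

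Other genes of sterol and fatty acid metabolism were lower as a group than the regulators and fatty acid enzymes. A list of 28 such genes, with SREBP proteases, lipid transporters, esterification enzymes and further fatty acid enzymes, had a median percentile of 66.7 per kb of span, and 8 of the 28 were among the top 25% of genes. It ran from Olah, a thioesterase that releases medium-chain fatty acids, at 0.322 per kb of span, to Slc25a1, the mitochondrial citrate carrier, at 492 per kb. Slc25a1 exports the citrate that Acly cleaves, and both stood above the 95th percentile per kb of span. Per kb of exons Acly stood at the 98.3rd percentile and Slc25a1 at the 76.2nd. Glycolysis enzymes had a median percentile of 95.1 per kb of span over 18 rows for 17 genes, from Pfkm at 43.9 per kb to Gapdh at 2721 per kb. Enzymes of serine, proline and other amino acid synthesis had a median percentile of 87.2 over 14 genes, from Psph at 93.2 per kb of span to Asns at 1393 per kb. The median of the 30 lipid synthesis genes was thus below both of these metabolic lists, on both length scales. That of the 6 fatty acid enzymes was above both per kb of span, but per kb of exons its 88.8 lay between the 84.0 of the amino acid enzymes and the 92.9 of the glycolysis enzymes.

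Transcription can also start upstream of a promoter in the antisense direction. Such promoter upstream transcripts (PROMPTs) were counted by the authors in a separate table, over 1000 bases before a start, and 24 of the 30 genes had a row there. Hmgcs1, Mvd, Idi1, Hsd17b7, Insig1 and Elovl6 were without a row. The table was scaled on its own, since the lowest mean above 0 was 0.0216 in the gene table and 0.0266 in the PROMPT table, and no ratio of a PROMPT to its gene is given. All 24 PROMPTs had reads, and 15 of them (62.5%, 95% Clopper-Pearson interval 40.6% to 81.2%) had a mean of at least 1, compared with 45.7% of 16579 other genes with reads and a PROMPT row. Among other genes with a mean at least as high as that of Fdps, the lowest of the 24, the share was 63.5%. The interval covers counting error over genes only.

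The PROMPTs of the 24 genes covered a wide range. That of Acat2 was the highest, with a mean of 52.2 (96.6th percentile of PROMPTs with reads), although Acat2 itself ranked 15th of the 30 genes per kb of span. Next came the PROMPTs of Scd2 with a mean of 25.2, Srebf1 with 21.1, Scd1 with 19.8, Cyp51 with 14.7 and Stard4 with 13.2. These 6 (25% of the 24) were the only ones with a mean of at least 10, compared with 16.8% of the other genes and 24.9% of those with a mean at least as high as that of Fdps. Srebf2 had a PROMPT mean of 9.19, Ebp of 6.26, Lss of 5.24 and Fdft1 of 5.03. The PROMPTs of Scd1, Scd2 and both SREBP genes lay above the 80th percentile of PROMPTs with reads, as did those of Acat2, Cyp51 and Stard4.

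At the other end, Fdps had a PROMPT mean of 0.106 and Insig2 of 0.127, a few reads over all libraries. Acaca had 0.247, and the PROMPTs of Scap, Mvk, Msmo1 and Nsdhl lay between 0.524 and 0.541. Msmo1 combined one of the higher gene levels, 350 per kb of span, with a PROMPT mean of 0.534, below the median PROMPT with reads (0.815). Fasn and Acly, both above the 95th percentile per kb of span (80.4th and 98.3rd per kb of exons), had PROMPT means of 2.38 and 1.69. Across the 24 genes the Spearman correlation between the mean of the gene and that of its PROMPT was 0.277, and across 16579 other genes it was 0.565. The 2 values cover unlike ranges of level, since only 9897 of the other genes had a mean as high as that of Fdps (120), the lowest of the 24. A correlation among genes of matched level was not computed. These are correlations across genes, which share libraries and are not independent replicates.

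Some of the windows hold another gene. By Gencode vM21 a coding transcript of a different gene reached into the 1000 bases upstream of 6 of the 24 genes with a PROMPT row (Mvk, Tm7sf2, Nsdhl, Ebp, Dhcr7 and Acaca) and of 1 of the 6 without a row (Mvd). The neighbour of Mvk is Mmab, a gene of cobalamin metabolism, and that of Nsdhl is Cetn2, which encodes a centrin. The PROMPT means of these 6 genes ran from 0.247 in Acaca to 6.26 in Ebp, and how the authors treated the neighbouring gene in these windows was not given beyond the rule that PROMPTs lie away from other coding transcripts.

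**Figure D5:**
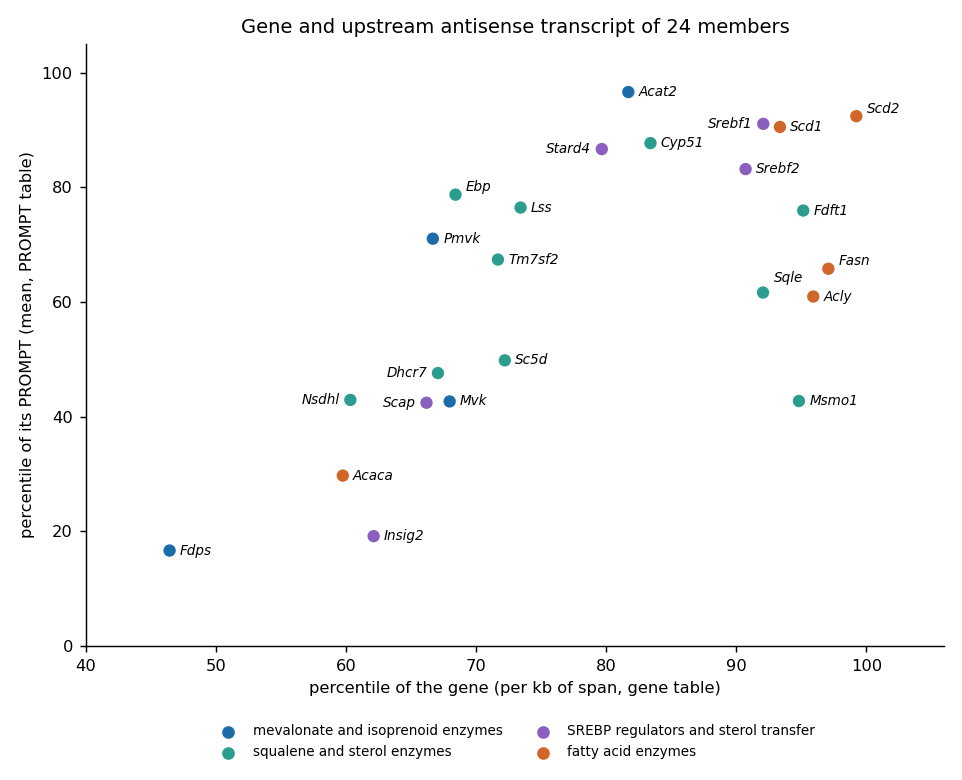
Percentile of the PROMPT within the PROMPT table against percentile of the gene per kb of span within the gene table, for the 24 genes with both, coloured by group. Acat2 has the highest PROMPT (96.6th percentile), Fdps is lowest on both axes, and Msmo1 lies at the lower right with a gene percentile of 94.8 and a PROMPT percentile of 42.7.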

How the data were processed

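TT-seq libraries of 6 conditions, 3 each, were grouped by their labels. Nothing in the labels says that the 3 come from separate cultures, and the study calls the clones biological and repeats technical replicates. The authors trimmed reads with Trim Galore, kept unique STAR alignments to mm10, counted by strand with featureCounts and normalized with DESeq2. The submitters' processing notes also list HTSeq and deepTools. Versions of these tools were not given in the sources used here. The study names Gencode vM25 for gene files it made for downstream analyses. The value used is the signal column the authors deposited, the mean of normalized counts over libraries, in the gene and the PROMPT table. Further columns hold the authors' log2 fold changes, standard errors, p-values and adjusted p-values for SPT16-depleted against control libraries and were not used, and neither were the tables of distal and enhancer transcripts, whose regions carry no coordinates. Depth per library is unknown here.

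Gene spans, exons and coordinates came from Gencode vM21 (GRCm38), matched by Ensembl ID for 21817 of 21859 genes. Percentiles were mid-ranks among genes with reads. PROMPTs were joined by symbol. Exonic words of 50 bases were searched on the chromosomes of GRCm38, both strands. Promoters were RefSeq's, 250 bases before to 50 after a start, searched on both strands. The members and lists were chosen with earlier results of these data known. All 30 members and their paralogs are named, except 1 paralog that is not reported here, and of other lists the highest and lowest gene per kb, beside the FACT subunits. Marker genes, Gm43738, Vps51 and neighbours in PROMPT windows were named after their values were seen. Alternatives were other lengths, other sets of ranked genes, other PROMPT thresholds and other motif windows. Percentiles, word search and motif search were tested on simulated data. The software was numba 0.67.0, matplotlib 3.10.9, scipy 1.17.1, pandas 2.3.3 and numpy 2.4.6 under Python 3.11.15.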

Additional observations from a re-analysis of the deposited data

How the results depend on the processing

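The values are means over all libraries, so no library could be left out, and the precision of a level is not known beyond the counts themselves. No paired analysis was possible because no value per library was used. The median percentile of the fatty acid enzymes (96.5) was 88.8 per kb of exons, 89.4 per kb of the longest transcript, 96.2 with no length, 96.0 among genes with a mean of at least 1 and 96.8 with genes at 0 included. In the same order, that of the regulators (85.2) was 78.6, 80.0, 79.3, 83.1 and 86.3, and that of the squalene and sterol enzymes (72.2) was 64.1, 71.4, 70.5, 68.3 and 74.4. For the mevalonate and isoprenoid enzymes (68.0) the values were 70.9 per kb of exons, 62.1 with no length, 63.5 among genes with a mean of at least 1 and 70.4 with genes at 0 included. The fatty acid enzymes and then the regulators were highest under each of these. The 15 PROMPTs with a mean of at least 1 became 6 at a mean of at least 10 and 24 at any mean above 0, while the share among other genes went from 45.7% to 16.8% and 82.5%. The ratio of Srebf1 to Srebf2 (1.09) turned to 0.563 per kb of exons, 0.522 per kb of the longest transcript and 0.442 with no length, the only 1 of 15 ratios within families that turned. On the strand of the gene alone, 11 in place of 20 genes had a CCAAT box, 45.8% compared with 23.7% of other genes. Without any length the ratio of Acaca to Acacb was 8.47, and per kb of the longest transcript 7.83. The causes were not tested.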
